A study of Arabidopsis thaliana with 60 samples.

Results

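Genes of indole glucosinolate synthesis and of the PEN pathway were followed in Arabidopsis leaves after induction of MLACC, the N-terminal coiled-coil part of MLA, a barley NLR immune receptor. They were chosen by name and locus identifier and not by a rule on measured values, though earlier results of these data were known. They make up 10 of the 32678 genes in the count tables. The list holds 4 enzymes of the core pathway, CYP83B1 (AT4G31500), SUR1 (AT2G20610), UGT74B1 (AT1G24100) and SOT16 (AT1G74100), the modifying enzyme CYP81F2 (AT5G57220), the thioglucosidase PEN2 (AT2G44490), the transporter PEN3 (AT1G59870) and the transcription factors MYB34 (AT5G60890), MYB51 (AT1G18570) and MYB122 (AT1G74080). No gene model of the RefSeq annotation overlapped any of them.

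Indole glucosinolates are sulphur-rich glucosides that crucifers make from tryptophan. CYP79B2 and CYP79B3 convert tryptophan to indole-3-acetaldoxime, CYP83B1 oxidizes the aldoxime, a glutathione conjugate is cleaved by the C-S lyase SUR1, and UGT74B1 and SOT16 add the glucose and the sulphate. MYB34, MYB51 and MYB122 are the R2R3-MYB activators of this route. CYP81F2 hydroxylates the indole ring, which opens the way to the methoxylated product that PEN2 hydrolyses at sites of attempted fungal entry, and the plasma membrane ABC transporter PEN3 is thought to export products of this reaction.

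Messenger RNA of Col-0 leaves was sequenced from 4 lines at 0, 2, 4, 6 and 8 h after infiltration of 1 µM dexamethasone by syringe, with 3 biological replicates in each of the 20 groups and 60 libraries in all. In the wild-type background (WT), a line with dexamethasone-inducible MLACC fused to monomeric yellow fluorescent protein (DEXp:MLACC-mYFP) was compared with a line that induces the fluorescent protein alone (DEXp:mYFP, the mYFP line). The same MLACC construct was expressed in ppsdes, a mutant with lesions in PEN2, PAD4, SAG101, DDE2, EIN2 and SID2, in which jasmonate, ethylene and salicylic acid signalling are impaired together, and was compared with ppsdes plants without a transgene. Plants were 4 weeks old and each sample pooled 6 leaf discs from 6 plants. Each construct was represented by 1 transgenic line per background, and the ppsdes control, unlike the mYFP line, induces no foreign protein. The study reported a lower steady-state level of MLACC protein in this mutant background. The part of that level in the differences between MLACC effects described here was not tested. Because the 2 backgrounds are also 2 separate count tables, background and table cannot be told apart for levels at rest, whereas a shift common to 1 table cancels in the difference between the MLACC effects.

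Levels are given in CPM, the counts of a gene per M gene counts after TMM scaling over all 60 libraries, as mean ± SD of 3 libraries. MLACC effects are log2 ratios (log2FC) of MLACC to its control at the same time ± SE. The SE was derived as the absolute log2FC over the square root of F from the edgeR quasi-likelihood test. All 95% intervals were built from this SE. A gene was called when its Benjamini-Hochberg adjusted p (FDR) was below 0.01 and its absolute log2FC above 1. Libraries held 14.1 to 26.0 M gene counts, so that 1 count corresponded to at most 0.0615 CPM. Over all genes, 7 of the 60 libraries lay nearer to the mean of another time of their own line than to that of their own group. These were mYFP replicate 3 at 2 h, MLACC replicate 1 at 4 h and replicate 3 at 8 h in WT, the ppsdes control replicate 2 at 4 h, replicate 1 at 6 h and replicate 2 at 8 h, and MLACC ppsdes replicate 1 at 6 h. They were kept under their labels, and calls that change without them, together or singly, are given with both values. The mesophyll markers, the photosynthesis genes LHCB1.1, RBCS1A, LHCA1 and PSAD1, summed to 42432 to 57520 CPM in the 4 lines at 0 h, whereas the 4 root markers together reached at most 12.9 CPM and the 3 flower markers at most 2.56 CPM in any library.

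The upstream sequences of the 3 MYB genes are shown because these regulators responded in different ways, and those of SOT16 and CYP83B1 because these enzymes had the largest calls among the 4 core enzymes. Each is the 250 bases before the annotated start in the RefSeq assembly TAIR10.1, 5′ to 3′ on the strand of the gene, with matches of the W-box core TTGAC and of CGTG on either strand in capitals. MYB34 was read from chr5:24494041-24494290 (plus strand), MYB51 from chr1:6389149-6389398 (plus), MYB122 from chr1:27855328-27855577 (plus), SOT16 from chr1:27865695-27865944 (minus) and CYP83B1 from chr4:15275405-15275654 (minus).
MYB34: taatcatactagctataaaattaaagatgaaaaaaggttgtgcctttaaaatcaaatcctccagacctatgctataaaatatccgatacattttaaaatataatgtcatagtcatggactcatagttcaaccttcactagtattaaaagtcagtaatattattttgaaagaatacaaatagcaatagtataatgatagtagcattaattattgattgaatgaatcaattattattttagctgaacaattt
MYB51: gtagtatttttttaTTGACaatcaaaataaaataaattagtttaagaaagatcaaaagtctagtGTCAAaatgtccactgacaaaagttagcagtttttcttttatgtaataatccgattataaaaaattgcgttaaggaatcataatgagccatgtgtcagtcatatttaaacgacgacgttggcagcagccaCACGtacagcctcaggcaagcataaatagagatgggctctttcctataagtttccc
MYB122: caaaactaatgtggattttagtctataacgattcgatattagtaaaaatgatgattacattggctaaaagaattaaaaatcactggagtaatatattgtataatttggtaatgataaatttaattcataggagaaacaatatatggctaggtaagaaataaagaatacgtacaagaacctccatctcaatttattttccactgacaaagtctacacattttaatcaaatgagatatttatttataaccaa
SOT16: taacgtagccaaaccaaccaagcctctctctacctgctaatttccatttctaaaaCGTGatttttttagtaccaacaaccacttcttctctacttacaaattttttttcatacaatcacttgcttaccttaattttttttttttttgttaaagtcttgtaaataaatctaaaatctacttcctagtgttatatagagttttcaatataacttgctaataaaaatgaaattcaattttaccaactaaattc
CYP83B1: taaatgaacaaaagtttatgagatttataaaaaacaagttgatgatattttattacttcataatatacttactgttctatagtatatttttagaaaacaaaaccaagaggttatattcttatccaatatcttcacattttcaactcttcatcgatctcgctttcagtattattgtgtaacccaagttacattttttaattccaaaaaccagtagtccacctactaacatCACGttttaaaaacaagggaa
The W-box core, the letters bound by WRKY factors, was present 2 times before MYB51, starting 236 and 186 bases ahead of the gene, and was not found in the other 4 sequences. Across the 10 genes 5 windows held it, those of SUR1, CYP81F2, PEN2, PEN3 and MYB51, against 44.9% of the same windows of 27443 protein-coding genes. The G-box CACGTG occurred before SUR1 alone (6.49% of all windows) and the GCC-box GCCGCC before none (1.87%). Of the cores that calmodulin-binding CAMTA factors bind, CGCG was found before UGT74B1 alone (10.1%) and CGTG, which the G-box contains, before 7 of the 10 genes (45.6% of all windows). CYP81F2, MYB34 and MYB122 were those without either. The W-box matches include those that continue as TTGACC or TTGACT, which 2 and 3 of the 10 windows held (12.2% and 19.1% of all windows). TTGACC was found before CYP81F2 and PEN2, and TTGACT before SUR1, CYP81F2 and PEN3. Neither match before MYB51 continued in either of these ways.

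At rest, at 0 h, the order of levels per kb of exon in the mYFP line was led by PEN3 with 47.9 ± 8.29 CPM per kb, PEN2 with 41.8 ± 3.71, CYP83B1 with 37.3 ± 5.71 and SOT16 with 35.9 ± 4.53, neighbours that did not differ beyond their spread. The regulators were lower, with MYB51 at 7.69 ± 2.81 and MYB34 at 4.90 ± 2.38 CPM per kb, and MYB122 had no count in any of the 12 libraries at 0 h. No member was called between MLACC and its control at 0 h in WT, where 0.00509% of the 19654 genes tested were called, or in ppsdes, where 0.0104% of 19216 were. In neither was a member at an unadjusted p under 0.05 or called by DESeq2.

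PEN2 was the member with the largest difference between the resting backgrounds. It read 88.1, 88.3 and 102 CPM in the mYFP line and 39.6, 15.5 and 14.2 CPM in the ppsdes control, and its range in the MLACC lines was 115 to 129 CPM in WT and 10.4 to 21.6 CPM in ppsdes. The 3 control libraries of ppsdes all lay below those of the mYFP line, yet the fitted difference of -2.01 ± 0.57 missed the threshold (FDR = 0.0564). None of the 10 members was called in this comparison, in which 0.351% of 19929 genes were called (0.146% higher and 0.206% lower). An unadjusted p under 0.05 was found for PEN2 and SUR1 (-0.69 ± 0.21, FDR = 0.083). No member was called by DESeq2. PEN2 is itself mutated in ppsdes, so these counts describe transcripts of the mutant allele there.

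**Figure D1:**
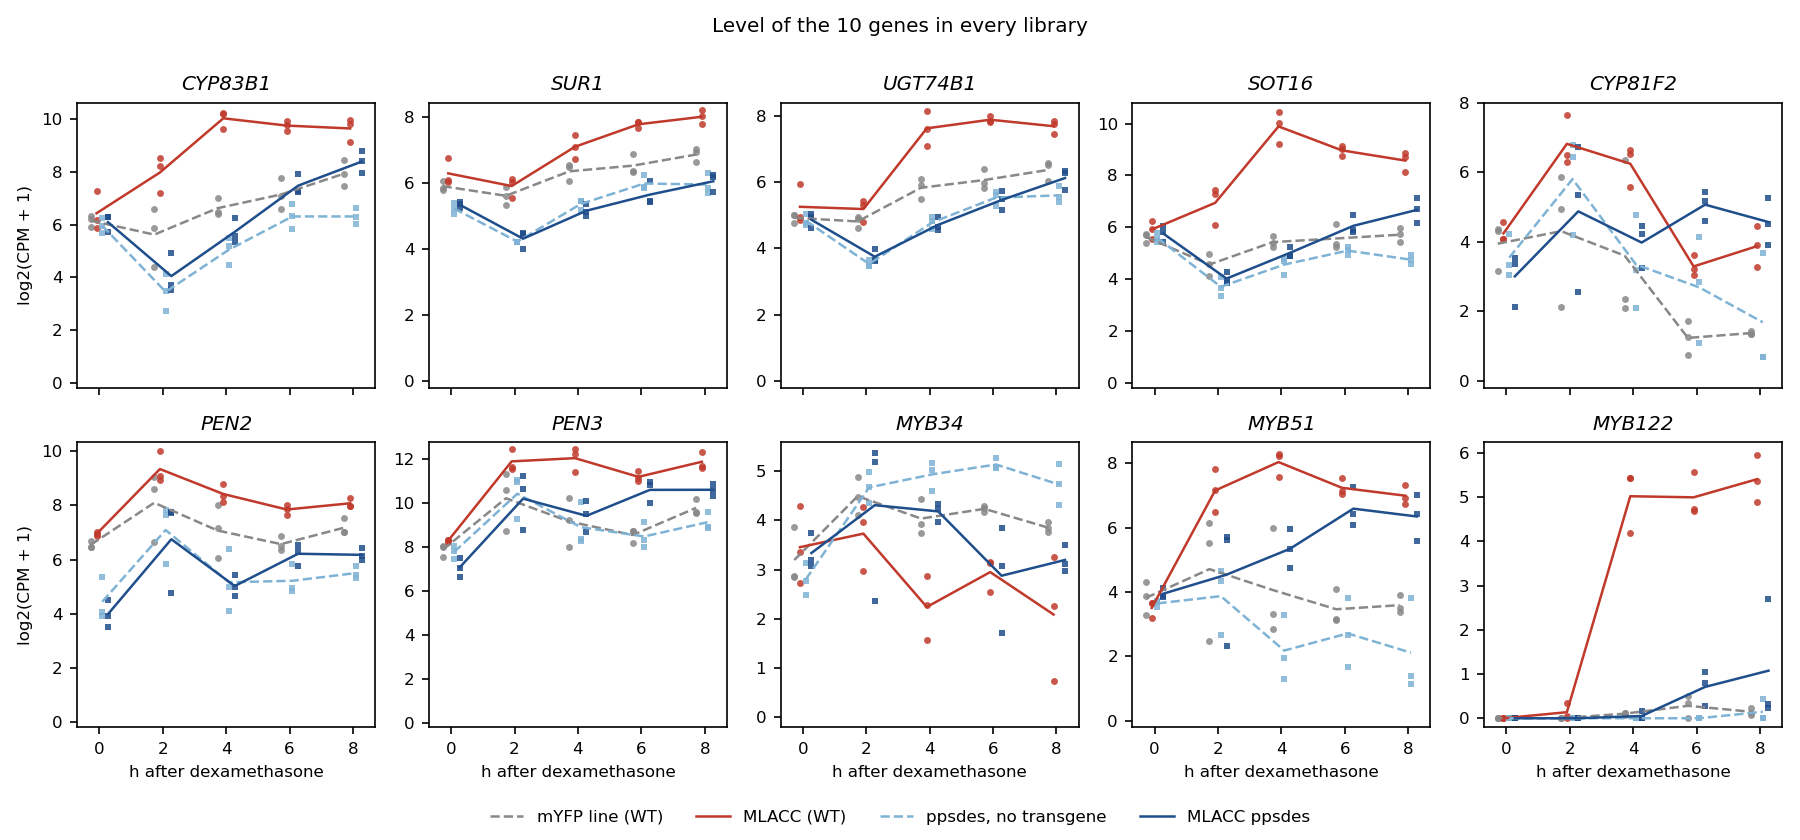
Level of each of the 10 genes in every library, as log2(CPM + 1) against h after dexamethasone. Each point is 1 library and each line joins the means of 3 libraries on that scale, with grey for the mYFP line, red for MLACC in WT, light blue for ppsdes without a transgene and dark blue for MLACC ppsdes (circles for WT, squares for ppsdes, dashed lines for controls). MYB122 stays near 0 in both controls, while MYB34 lies lower in both MLACC lines than in their controls from 4 h.

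Of the 10 members, 2 rose with MLACC in WT at 2 h, 6 rose and 1 fell at 4 h, 7 rose at 6 h and 8 rose at 8 h. Over all genes tested 4.26%, 39.0%, 29.3% and 45.8% were called at these times, of which 4.14%, 21.4%, 18.8% and 23.1% were called higher and 0.117%, 17.6%, 10.5% and 22.6% lower. The median log2FC of the 10 members was 1.69, 2.31, 2.60 and 1.92 from 2 to 8 h, beside medians of 0.01, 0.02, -0.02 and 0.02 over all genes. At 8 h the 3 MLACC libraries lay above all 3 controls for 9 members and below them for MYB34, where 39.8% and 38.2% of all genes did so. In the same WT leaves the summed mesophyll markers fell, from 29744 to 34816 CPM in the mYFP line to 5717 to 14737 CPM with MLACC at 8 h, and 4 of the 4 genes were called lower. The 4 epidermis markers summed to 304 to 327 CPM and to 12 to 129 CPM, with 3 called lower. In bulk leaf samples fewer cells of a type and less RNA per cell cannot be told apart, and the part of these shifts in the results on the 10 genes was not tested.

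Among the core enzymes, SOT16, which adds the sulphate in the last core step, changed most. Its levels at 4 h were 48.9, 41.3 and 36.5 CPM in the mYFP line and 585, 1394 and 1044 CPM with MLACC. The groups were far apart, with the lowest MLACC library more than 10 times the highest control, and the effect was 4.63 ± 0.38 (FDR = 5.3e-09). SOT16 had already risen at 2 h, when the mYFP libraries read 23.1, 30.4 and 16.4 CPM and the MLACC libraries 174, 154 and 67.1 CPM (2.54 ± 0.35, FDR = 5.5e-05). This call was lost with only these 6 libraries in the fit (2.51, FDR = 0.035) and with the difference at 0 h subtracted (2.22, FDR = 0.016). From 2 to 4 h its MLACC effect grew by a further 2.09 ± 0.47 (FDR = 0.0033, with 9.18% of all genes called in this comparison), which was lost without mYFP replicate 2 of 2 h (1.82, FDR = 0.013) or MLACC replicate 2 of 4 h (1.78, FDR = 0.014). The effect was 3.40 ± 0.36 at 6 h and 2.92 ± 0.35 at 8 h.

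CYP83B1, which commits the aldoxime to the glucosinolate route, was, like SOT16, called higher at each time from 2 to 8 h. The growth of its effect from 2 to 4 h was not called. At 4 h it read 127, 83.8 and 88.1 CPM in the mYFP line and 806, 1192 and 1223 CPM with MLACC, an effect of 3.48 ± 0.49 (FDR = 3.1e-06). The effect at 2 h, 2.25 ± 0.47 (FDR = 0.0023), was lost without mYFP replicate 3, which had the lowest of the control levels of 57.7, 96.9 and 19.8 CPM (1.80, FDR = 0.017), and also without mYFP replicate 1 (FDR = 0.015) or MLACC replicate 1 (FDR = 0.020). By 8 h the mean level with MLACC was 830.4 ± 227 CPM, but the mYFP line had itself reached 255 ± 86.0 CPM, and the effect was 1.72 ± 0.46 (FDR = 0.0019). Without mYFP replicate 3 it was 1.51 at 8 h (FDR = 0.014).

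UGT74B1, the glucosyltransferase, and the C-S lyase SUR1 moved later and by less. For UGT74B1 the libraries at 4 h read 67.5, 59.4 and 43.6 CPM in the mYFP line and 136, 285 and 195 CPM with MLACC, which did not overlap (1.90 ± 0.28, FDR = 5.1e-06). It was not called at 2 h (0.45 ± 0.27, FDR = 0.35), and its growth between 2 and 4 h, 1.45 ± 0.39, was barely past the threshold (FDR = 0.0090) and was lost without any 1 of 11 of the 12 libraries compared. SUR1 was called at 6 h, when the controls read 117, 80.4 and 82.4 CPM and the MLACC libraries 230, 230 and 202 CPM (1.26 ± 0.22, FDR = 6.7e-05). At 4 h its 0.82 ± 0.22 had an FDR of 0.0025 but stayed under the fold threshold.

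CYP81F2, which hydroxylates the indole ring, was at its highest at 2 h in both controls, with libraries of a group far apart. In WT at 2 h it read 29.6, 57.4 and 3.37 CPM in the mYFP line and 201, 90.0 and 78.2 CPM with MLACC, without a call (2.05 ± 0.87, FDR = 0.14). At 4 h 2 mYFP libraries read 3.30 and 4.14 CPM while replicate 3 read 80.8 CPM, within the MLACC range of 47.1 to 99.1 CPM. The effect there was 1.45 ± 0.85 with this library and 4.43 without it (FDR = 0.00011). At 6 h CYP81F2 was not called in the main fit, although 0.663 to 2.29 CPM in the mYFP line did not overlap 7.35 to 11.2 CPM with MLACC. DESeq2 called it at that time (2.65, FDR = 0.0031), as did the fit with only the libraries compared (2.63, FDR = 0.00024). By 8 h the control had dropped to 1.53 to 1.73 CPM and MLACC libraries held 13.9, 21.1 and 8.66 CPM, an effect of 3.20 ± 0.98 (FDR = 0.0055) that was lost when any of the 3 mYFP libraries, MLACC replicate 1 or MLACC replicate 2 was left out.

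PEN3 had the highest level of the 10 genes per kb in the WT MLACC line at 8 h, at 793 ± 235 CPM per kb. At 4 h it read 604, 256 and 1223 CPM in the mYFP line and 2768, 4835 and 5777 CPM with MLACC, and every MLACC library exceeded every control (2.72 ± 0.52, FDR = 0.0001). It was called at 6 and 8 h too (2.66 ± 0.52 and 2.13 ± 0.51). The growth of its effect from 2 to 4 h, 1.30 ± 0.69 (FDR = 0.14), was called without the libraries nearest another time (1.96, FDR = 0.0096). PEN2 was not called at any time in the main fit, although from 4 h its MLACC libraries lay above the controls in each group. At 6 h it read 115, 80.1 and 90.4 CPM against 235, 257 and 201 CPM (1.30 ± 0.44, FDR = 0.013), and the largest effect that its 95% interval allowed at that time was 2.20. Without the libraries nearest another time, PEN2 was called at 4 h (1.30, FDR = 0.0035) and at 6 h (1.29, FDR = 0.0023). At 4 h mYFP replicate 3 again stood apart, with 259 CPM beside 141 and 65.0 CPM, and without it alone the effect was 1.78 (FDR = 0.0023). For CYP81F2, PEN2, PEN3 and MYB51, replicate 3 was the lowest mYFP library at 2 h and the highest at 4 h. MYB51 read 4.52 and 63.0 CPM in these libraries. Only that of 2 h was among the libraries nearest another time. The reason was not tested, and the WT effects at both times use both libraries as labelled.

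The 3 MYB regulators did not move together. MYB122 was without counts in the mYFP line at 0 and 2 h and had 1, 2 and 2 counts there at 4 h, or 0.0738 ± 0.0261 CPM. In the MLACC line it rose from 5, 1 and 0 counts at 2 h to 365, 766 and 898 counts at 4 h, which is 17.2, 42.5 and 42.0 CPM. The fitted effects were 8.79 ± 0.74 at 4 h, 7.09 ± 0.64 at 6 h and 8.57 ± 0.71 at 8 h (FDR = 2.6e-08 at 8 h), and rested on 5, 16 and 7 control counts.

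MYB51 was expressed in every library and read 6.28, 9.02 and 63.0 CPM in the mYFP line at 4 h against 190, 302 and 316 CPM with MLACC. All MLACC libraries were above the controls, of which replicate 3 was the high one (3.40 ± 0.75, FDR = 0.00043). Without that library the effect was 5.15 (FDR = 1.1e-05), and with only these 6 libraries in the fit it was 3.37 and not called (FDR = 0.028). At 2 h the MLACC libraries were also above the controls, at 88.0 to 224 CPM against 4.52 to 69.4 CPM, but the effect of 1.96 ± 0.71 was not called (FDR = 0.079). Its effects at 6 and 8 h were 3.86 ± 0.77 and 3.54 ± 0.76.

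MYB34 went the other way. In the WT MLACC line it read 6.28, 3.88 and 1.97 CPM at 4 h against 20.6, 14.3 and 12.4 CPM in the mYFP line, a fall of 1.91 ± 0.56 on the log2 scale (FDR = 0.0046). The groups did not overlap, but the call was lost without mYFP replicate 1 (FDR = 0.021), MLACC replicate 2 (FDR = 0.018) or MLACC replicate 3 (FDR = 0.032). At 6 and 8 h its 3 MLACC libraries again lay below all controls, with log2FC of -1.36 ± 0.54 (FDR = 0.032) and -1.64 ± 0.55 (FDR = 0.011), neither of them called. At 8 h MLACC replicate 3 was the highest library, at 8.56 CPM beside 3.78 and 0.676 CPM, and without it MYB34 was called at -2.58 (FDR = 0.00079).

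**Figure D2:**
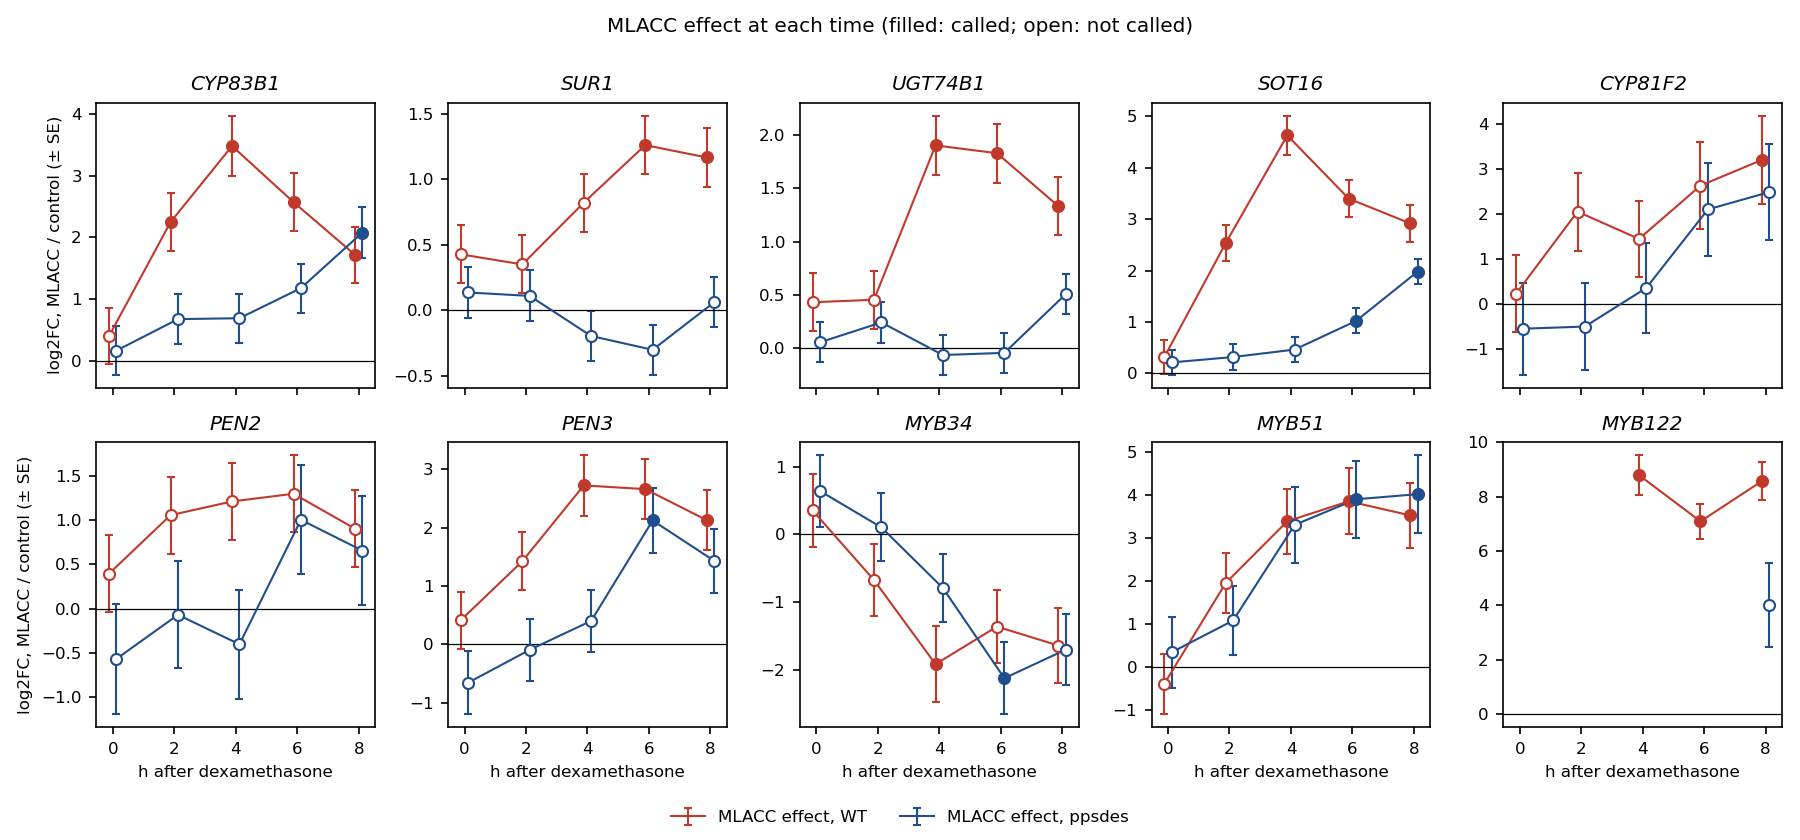
MLACC effect, log2FC of MLACC over its control ± SE, for each gene at each time in WT (red) and ppsdes (blue), with filled points for calls and open points for values that were not called. The vertical scale differs between panels, MYB122 is drawn only where its controls held counts, and SOT16 in WT reaches 4.63 at 4 h while MYB34 falls below 0 in both backgrounds from 4 h.

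In ppsdes none of the members was called at 2 h or at 4 h, beside 0.396% and 2.22% of all genes tested (0.38% and 2.08% higher, 0.0156% and 0.141% lower). No member had an unadjusted p under 0.05 at 2 h and 1 had at 4 h. DESeq2 called none at 2 h and MYB51 at 4 h. The MLACC libraries of 2 h lay far apart for some members. MYB51 read 3.99, 50.9 and 47.7 CPM there against 5.28, 19.1 and 23.9 CPM in the control. The lack of calls at 2 h thus does not show that no member changed. At 6 h 3 members rose and 1 fell against a background of 14.6% (10.5% higher and 4.13% lower), and at 8 h 3 rose against 12.4% (9% higher and 3.44% lower). The mesophyll markers summed to 25769 to 34882 CPM with MLACC and to 38737 to 46061 CPM in the control at 8 h, with none of the 4 called, and the epidermis markers to 136 to 219 CPM and 304 to 393 CPM, with 2 called lower.

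MYB51 led the members in ppsdes. At 4 h the control libraries read 2.90, 8.73 and 1.45 CPM and the MLACC libraries 26.0, 39.1 and 61.1 CPM, groups that did not overlap, with an effect of 3.31 ± 0.89 that missed the threshold (FDR = 0.023). It was past it without the libraries nearest another time (4.30, FDR = 0.0063). At 6 h MYB51 read 67.4, 152 and 85.1 CPM against 2.18, 13.1 and 5.28 CPM (3.91 ± 0.90, FDR = 0.0014), and at 8 h its effect was 4.03 ± 0.91 (FDR = 0.0016). The call at 6 h was lost without control replicate 1 (FDR = 0.011) and that at 8 h without control replicate 1 (FDR = 0.012) or 3 (FDR = 0.011).

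MYB34 fell in ppsdes as well, with 13.4, 2.28 and 7.36 CPM against 32.4, 33.0 and 37.3 CPM at 6 h (-2.12 ± 0.53, FDR = 0.0027), a call that was lost without MLACC replicate 2 (FDR = 0.021) or 3 (FDR = 0.014). At 8 h the libraries were again apart, with 6.88 to 10.2 CPM below 18.8 to 34.3 CPM, but -1.70 ± 0.52 was not called (FDR = 0.013). MYB122 held 25, 12 and 5 counts in the MLACC libraries at 6 h and none in the 3 controls, so that its mean of 0.674 ± 0.435 CPM was at least 13.5-fold higher than 3 counts over the control group would give. At 8 h 115 of its 125 counts came from MLACC replicate 2, where it read 5.46 CPM, beside 0.243 and 0.166 CPM in the other libraries, and 1 control library held 7 counts. Neither time gave a call (FDR = 0.069 and 0.061).

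Of the enzymes, SOT16 read 55.2, 87.3 and 57.9 CPM against 33.6, 36.9 and 29.5 CPM at 6 h in ppsdes (1.02 ± 0.24, FDR = 0.0020), just past the fold threshold, and the call was lost without control replicate 3 or MLACC replicate 2. At 8 h it read 103, 141 and 70.0 CPM against 29.7, 25.4 and 22.8 CPM, a clear separation (1.98 ± 0.25, FDR = 5.7e-06). CYP83B1 rose at 8 h, from 98.9, 76.8 and 63.7 CPM to 343, 442 and 250 CPM (2.08 ± 0.41, FDR = 0.00046). At 6 h its libraries did not overlap either. The replicate number was also fitted as a block, with effects shared by all times and both ppsdes lines and no pairing within a time. With this block CYP83B1 was called at 6 h (1.18, FDR = 0.0055 against 0.020 without the block). PEN3 was called at 6 h, with 1040, 1999 and 1836 CPM against 256, 567 and 316 CPM (2.12 ± 0.56, FDR = 0.0041), but not without control replicate 1 or 3 or MLACC replicate 2 or 3 (FDR = 0.026, 0.021, 0.019 and 0.013). At 8 h it was not called, but was with the block (1.48, FDR = 0.0088) and with only the libraries compared (1.476, FDR = 0.0039). SUR1 and UGT74B1 were not called in ppsdes at any time, with effects from -0.30 to 0.14 and from -0.07 to 0.51.

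CYP81F2 was not called in ppsdes either. At 8 h it read 22.0, 37.8 and 14.1 CPM with MLACC and 0.606, 11.9 and 0.610 CPM in the control, where replicate 2 stood apart and was also among the libraries nearest another time. The effect was 2.49 ± 1.07 (FDR = 0.070) and, without that library alone, 5.29 (FDR = 0.0052).

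The difference between the MLACC effects of the 2 backgrounds, ppsdes minus WT, was tested as an interaction over all 60 libraries. It was called lower for SOT16 at 2 h, for CYP83B1, UGT74B1 and SOT16 at 4 h, for SUR1, UGT74B1 and SOT16 at 6 h and for SUR1 at 8 h, which are 1, 3, 3 and 1 of the 10 members. Over the 19929 genes 0.206%, 20.7%, 4.13% and 19.9% were called, of which 0.0702%, 10.6%, 2.61% and 8.61% were lower and 0.135%, 10.1%, 1.52% and 11.3% higher. No member was called at 0 h (0.01% of all genes, with 0.00502% in each direction), where none reached an unadjusted p under 0.05 and none was called by DESeq2. No member was called higher at any time.

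All 8 calls were on core enzymes. SOT16 differed by -4.13 ± 0.43 at 4 h (FDR = 2.5e-09), with a mean of 1008 ± 406 CPM in the WT MLACC line and 31.4 ± 4.17 CPM in MLACC ppsdes, where the controls were at 42.2 ± 6.23 and 22.9 ± 5.19 CPM. CYP83B1 differed by -2.75 ± 0.62 at 4 h (FDR = 0.00062), yet at 8 h the effects of 1.72 and 2.08 left a difference of 0.41 ± 0.61 with a 95% interval from -0.82 to 1.63. UGT74B1 differed by -1.93 ± 0.34 at 4 h and -1.88 ± 0.33 at 6 h, and SUR1 by -1.56 ± 0.29 at 6 h and -1.06 ± 0.29 at 8 h. The call on SOT16 at 2 h (-2.18 ± 0.42, FDR = 0.0048) was lost without the libraries nearest another time (-1.97, FDR = 0.020) and without any 1 of 8 of the 12 libraries compared, namely mYFP replicate 1 or 3, WT MLACC replicate 1 or 2, ppsdes control replicate 2 or 3 and MLACC ppsdes replicate 1 or 3 (-1.93 to -2.23, FDR = 0.011 to 0.037). That on SUR1 at 8 h was lost without mYFP replicate 3, WT MLACC replicate 1 or 2, ppsdes control replicate 1 or MLACC ppsdes replicate 3. Its absolute value was then under 1 each time.

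None of the regulators was called in this comparison. MYB51 differed by -0.08 ± 1.13 at 4 h, 0.04 ± 1.09 at 6 h and 0.53 ± 1.11 at 8 h, with 95% intervals from -2.36 to 2.20, from -2.17 to 2.24 and from -1.71 to 2.77, which do not show that the effects were alike. MYB34 differed by 1.16 ± 0.77 at 4 h and -0.76 ± 0.77 at 6 h, with intervals that include 0. Before 8 h MYB122 had no counts in the ppsdes control, which leaves its interaction without an interpretable error. At 8 h it differed by -4.51 ± 2.24 (FDR = 0.11), and without MLACC ppsdes replicate 2 by -7.69 (FDR = 0.0025). Its levels at 8 h were 43.3 ± 16.1 CPM in the WT MLACC line and 1.96 ± 3.03 CPM in MLACC ppsdes. PEN3 differed by -2.31 ± 0.75 at 4 h (FDR = 0.012), and was called when mYFP replicate 3 (FDR = 0.0030), WT MLACC replicate 1 (FDR = 0.0063), ppsdes control replicate 1 (FDR = 0.0068) or 3 (FDR = 0.0082) or MLACC ppsdes replicate 3 (FDR = 0.0074) was left out. Without ppsdes control replicate 2 it was -1.48 (FDR = 0.11). SUR1 at 4 h (-0.98 ± 0.29, FDR = 0.0071) lay just under the fold threshold and passed it without any 1 of 5 libraries or without the libraries nearest another time (-1.03).

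**Figure D3:**
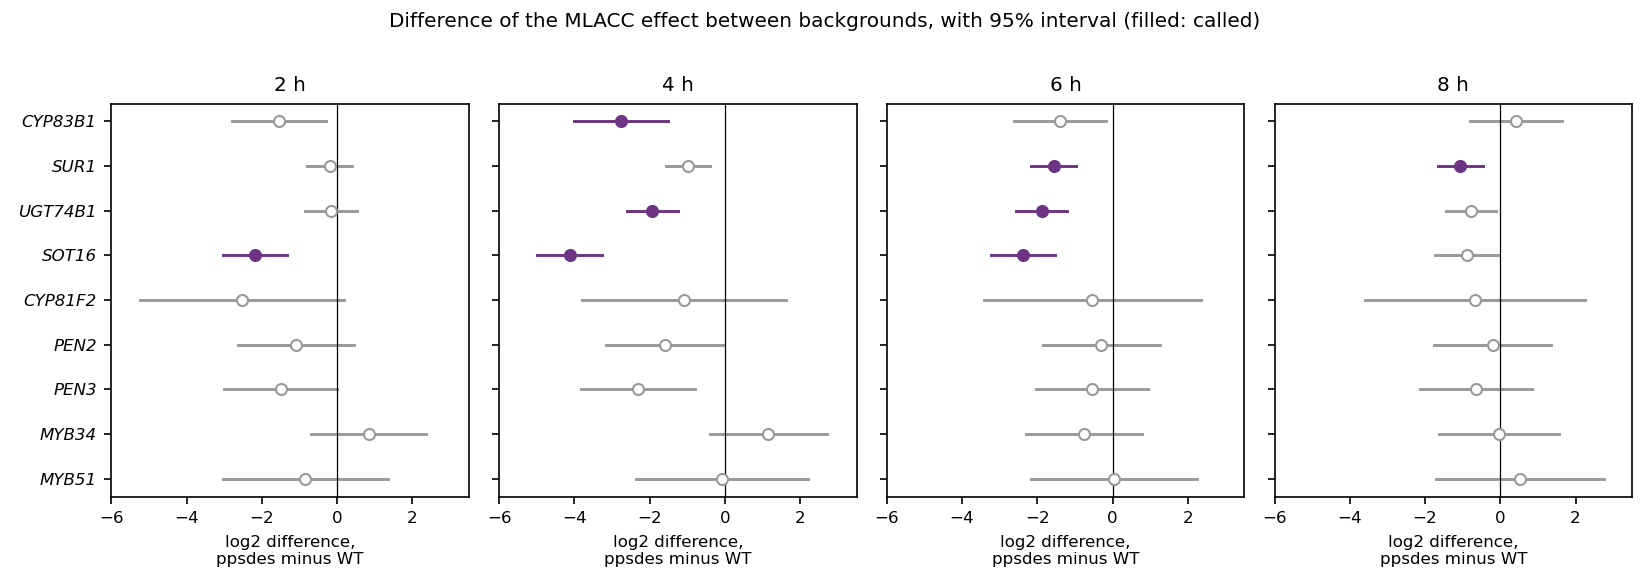
Size of the MLACC effect in ppsdes less that in WT, in log2 units with its 95% interval at 2, 4, 6 and 8 h for 9 genes, MYB122 left out for its controls without counts. Filled purple points are calls and open grey points are not, and all filled points lie left of 0, with SOT16 at -4.13 at 4 h.

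Some of the 10 genes also changed with time in the controls, which were infiltrated with dexamethasone as well. Without a mock or untreated series, infiltration, dexamethasone and time of day cannot be told apart in these changes. In the mYFP line against 0 h, 2 members were higher at 2 h, none was called at 4 h, 1 was higher and 1 lower at 6 h, and 4 were higher and 1 lower at 8 h, where 10.6%, 13.1%, 19.9% and 21.9% of all genes were called (6.86%, 7.67%, 10.3% and 11.7% higher and 3.77%, 5.45%, 9.56% and 10.3% lower). For the 0 calls at 4 h, DESeq2 gave PEN3 alone, and an unadjusted p under 0.05 was found for 3 members. PEN3 (1.58 ± 0.50, FDR = 0.016) was also called without the libraries nearest another time (1.56, FDR = 0.0028). PEN3 read 254, 189 and 265 CPM at 0 h and 1564, 2616 and 421 CPM at 2 h (2.72 ± 0.52, FDR = 0.00039), and PEN2 rose with it (1.88 ± 0.44, FDR = 0.0025), with replicate 3 of the 2 h group the low library in both. The call on PEN2 was lost without mYFP replicate 1 or 2 of 0 h or replicate 2 of 2 h (1.42 to 1.86, FDR = 0.012 to 0.024). By 8 h CYP83B1 was 1.91 ± 0.46, UGT74B1 1.55 ± 0.28, SUR1 1.04 ± 0.22 and PEN3 2.00 ± 0.51 above 0 h. Replicate 1 at 8 h was the highest library for all 4 of these genes, and without it CYP83B1 (1.60, FDR = 0.011), SUR1 (0.94, under the fold threshold) and PEN3 (1.74, FDR = 0.013) were not called. CYP83B1 was also lost without replicate 3 of 0 h, PEN3 without replicate 2 of 0 h, and SUR1 without replicate 1 or 2 of 0 h or replicate 2 of 8 h. Without the libraries nearest another time SUR1 was at 0.98, under the fold threshold. CYP81F2 fell, from 18.8, 8.03 and 19.7 CPM at 0 h to 1.73, 1.53 and 1.54 CPM at 8 h (-3.21 ± 0.98, FDR = 0.0092), a call that was lost without replicate 1 or 3 of 0 h or any of the 3 libraries of 8 h (FDR = 0.022 to 0.032). UGT74B1 (1.22 ± 0.28) and CYP81F2 (-3.37 ± 0.98, FDR = 0.0073) were the calls at 6 h. That on UGT74B1 was lost without replicate 1 of 6 h (0.98) and that on CYP81F2 without replicate 1 or 3 of 0 h or any of the 3 libraries of 6 h (FDR = 0.014 to 0.038).

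In the ppsdes control 3 members were higher and 4 lower at 2 h, 1 higher and 1 lower at 4 h, and MYB34 alone was called, higher, at 6 and at 8 h, beside 12%, 13.9%, 18.9% and 20.8% of all genes (7.59%, 8.21%, 9.49% and 10.3% higher and 4.45%, 5.69%, 9.4% and 10.4% lower). The 4 that fell at 2 h were the core enzymes. CYP83B1 dropped from 50.6, 74.5 and 61.1 CPM to 5.6, 10.2 and 16.6 CPM (-2.49 ± 0.42, FDR = 9e-05), SOT16 by 1.91 ± 0.25, UGT74B1 by 1.36 ± 0.19 and SUR1 by 1.02 ± 0.20 on the log2 scale. In the mYFP line the corresponding values at 2 h were -0.27, -1.05, -0.11 and -0.27, none of them called, and the difference between the 2 controls in this change was not tested. MYB34 rose in the ppsdes control from 4.61, 5.86 and 7.76 CPM to 24.6, 19.5 and 30.4 CPM at 2 h (2.06 ± 0.53, FDR = 0.0042) and stood at 34.2 ± 2.70 CPM at 6 h, and PEN2 (2.81 ± 0.65) and PEN3 (2.87 ± 0.58) were higher at 2 h. At 2 h the call on MYB34 was lost without any of the 3 libraries of 0 h or replicate 3 of 2 h (1.90 to 2.27, FDR = 0.010 to 0.024), that on PEN2 without replicate 2 or 3 of 0 h (FDR = 0.014 in both). The call on SUR1 was lost without replicate 3 of 0 h (-0.94, under the fold threshold). MYB34 was also lost at 4 h without replicate 1 of 0 h (FDR = 0.011) and at 8 h without replicate 1 or 2 of 0 h or replicate 3 of 8 h (FDR = 0.011 to 0.015). SOT16, the gene lower at 4 h (-1.02 ± 0.25), was lost without replicate 2 of 0 h or replicate 1 of 4 h. At 8 h CYP81F2 (-1.41 ± 1.06) and MYB51 (-1.14 ± 0.85) were not called in the ppsdes control, but were without the libraries nearest another time (-4.21, FDR = 0.0076, and -3.01, FDR = 0.0095). In both control lines CYP81F2, PEN2, PEN3 and MYB51 had their highest mean at 2 h. Since the MLACC effects of a background use these same control libraries at each time, levels that the controls lost or gained enter those effects directly.

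Other genes of the pathways were counted on fixed lists. Over all genes 4.14%, 21.4%, 18.8% and 23.1% were called higher in WT at 2, 4, 6 and 8 h, and 0.117%, 17.6%, 10.5% and 22.6% lower. In ppsdes 0.38%, 2.08%, 10.5% and 9% were called higher and 0.0156%, 0.141%, 4.13% and 3.44% lower. Among 12 tested of 13 other genes of indole glucosinolate synthesis, 2, 8, 8 and 9 rose with MLACC in WT at 2, 4, 6 and 8 h and none fell, with a median log2FC of 1.86 at 8 h. The genes with the lowest FDR at 8 h were CYP81F1 (2.91 ± 0.25), a hydroxylase related to CYP81F2, CYP79B2 (6.06 ± 0.70) and CYP79B3 (2.79 ± 0.46), which make the aldoxime, and GSTF10 (1.63 ± 0.28), a glutathione transferase. In ppsdes 0, 1, 0 and 2 of them rose at these times. CYP79B2 was called there at 8 h (2.89 ± 0.72, FDR = 0.0032), and its MLACC effect differed between backgrounds by -5.46 ± 1.00 at 4 h.

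The route from the same aldoxime to camalexin and indole carbonylnitriles, indole phytoalexins, was called higher in WT at 4, 6 and 8 h for 4 of the 4 genes tested, CYP71A12, CYP71A13, PAD3 and FOX1, of 5 on the list, and for 1 in ppsdes at 6 and at 8 h. Aliphatic glucosinolates, which are made from methionine, went the other way. Of 12 genes 8 fell in WT at 4 h, none fell and 1 rose at 6 h, and 6 fell at 8 h, among them the regulators MYB28 (-2.54 ± 0.75), MYB29 (-2.38 ± 0.73) and MYB76 (-2.09 ± 0.56) and the glucosyltransferase UGT74C1 (-2.25 ± 0.56). CYP83A1, the paralogue of CYP83B1 in the aliphatic route, was at -2.57 ± 0.76 at 4 h (FDR = 0.0051), when CYP83B1 was at 3.48, and at -2.01 ± 0.74 at 8 h, not called (FDR = 0.019). In ppsdes 3 aliphatic genes fell at 6 h and none at the other times.

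**Figure D4:**
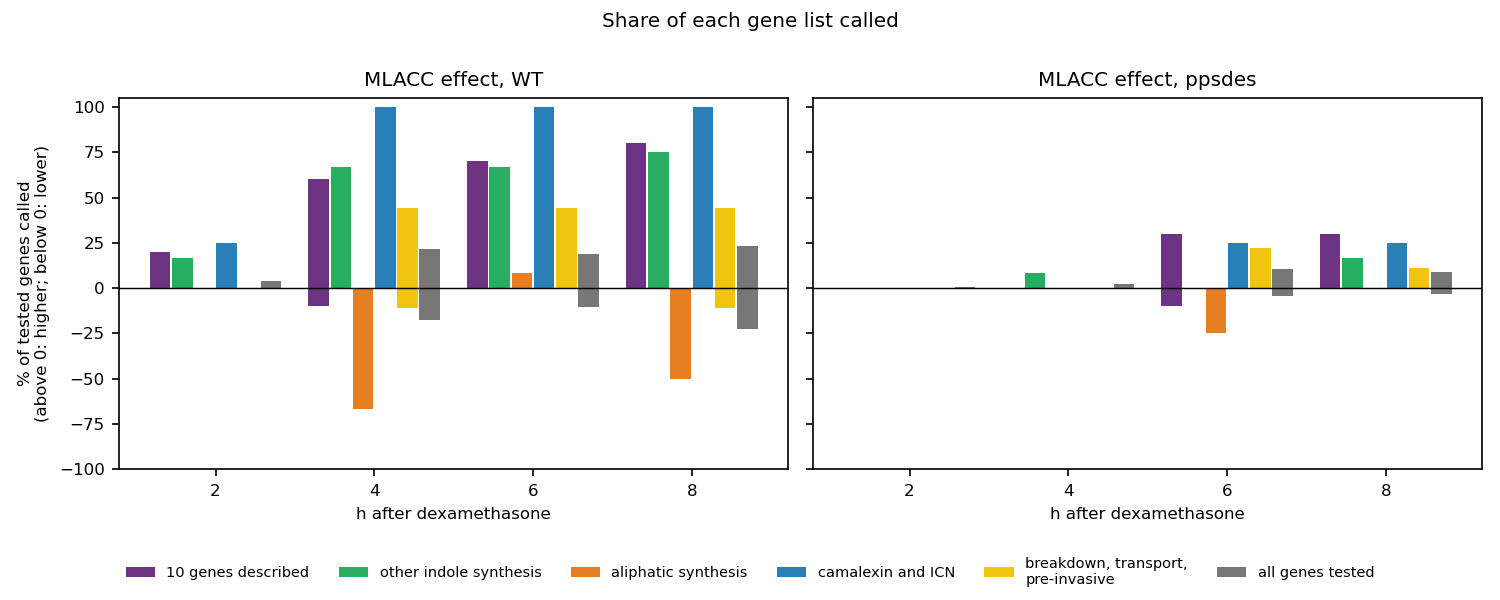
Percentage of the tested genes of each list that were called higher (above 0) or lower (below 0) with MLACC at 2, 4, 6 and 8 h in WT and in ppsdes, with all genes tested in grey as background. The lists hold 10, 12, 12, 4 and 9 tested genes, so that 1 gene is a large step, and the aliphatic list has bars below 0 at 4 and 8 h in WT, where the indole lists have theirs above 0 apart from MYB34 at 4 h.

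Of 9 tested genes of breakdown, transport and pre-invasive defence, 4 rose in WT at 4, 6 and 8 h (21.4%, 18.8% and 23.1% of all genes). At 4 and 8 h 1 fell (17.6% and 22.6% of all genes). At 8 h NSP1, a nitrile specifier protein, was at 3.04 ± 0.46, PEN1, the syntaxin of pre-invasive resistance, at 2.84 ± 0.49 and GTR2, a glucosinolate importer, at 1.11 ± 0.20, while the myrosinase TGG1 was not called (-0.81 ± 0.23, under the fold threshold). PEN1 was called in ppsdes as well, at 6 h (3.54 ± 0.52) and at 8 h (3.03 ± 0.51), with a difference between backgrounds at 8 h of 0.23 ± 0.68. Among 5 other regulators MYC2, the jasmonate-responsive factor, was called at 8 h in WT (1.81 ± 0.36) and MYC4 fell (-1.504 ± 0.40), while MYC3 (0.89 ± 0.17) and IQD1 (-0.76 ± 0.19) stayed under the fold threshold, and none of the 5 was called in ppsdes at any time.

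Neighbours on chromosome 1 moved in different directions. MYB122 (chr1:27855578-27857598) lies 6746 bases from SOT16 (chr1:27864345-27865694), with SOT18, a sulphotransferase of aliphatic glucosinolates, between them. SOT18 ends 151 bases from SOT16. At 4 h in WT MYB122 and SOT16 rose, and SOT18 fell by 2.21 ± 0.49 on the log2 scale (FDR = 0.00047). MYB51 (chr1:6389399-6391386) lies 7144 bases from the further sulphotransferase gene SOT17, which was at 0.93 ± 0.37 at 4 h, not called. Libraries did not mark the strand, and SOT16, SOT17 and SOT18 are related in sequence, so that reads shared between them were left out of the counts.

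Across the 20 group means, CYP83B1 tracked UGT74B1 (Pearson r = 0.95), SOT16 (0.93) and SUR1 (0.90), MYB122 tracked SOT16 (0.90), and MYB34 ran against SOT16 (-0.81), as a description over groups that share lines and controls. The genes most like each regulator over all genes tested were GATA7 (r = 0.934), AT4G17680 (0.933) and BAG5 (0.929) for MYB34, AT5G39670 (0.974), AT2G31990 (0.972) and XLG2 (0.971) for MYB51, and AT1G47980 (0.991), MSRB8 (0.989) and AT3G22620 (0.988) for MYB122.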

How the data were processed

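The authors made poly(A) libraries that keep no strand, checked reads with FastQC 0.11.2, mapped them to TAIR10 using TopHat2 2.0.10 and counted them per gene in HTSeq (version and settings not given in the sources used here). Deposited tables hold raw counts per gene, 30 libraries in each of 2 tables and without normalization. Their 5 summary lines were left out of all totals and fits, and gave 1.24% to 2.26% of reads in no feature, 0.362% to 0.671% ambiguous and 6.46% to 14.2% not uniquely placed. Gene counts per library were 14.1 to 26.0 M, and limits from 0 counts cover counting error only.

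Genes were filtered with filterByExpr, scaled by TMM and fitted with 1 mean per group in edgeR 4.0.16 (limma 3.58.1, R 4.3.3). The quasi-likelihood F test was used, with p-values adjusted after Benjamini and Hochberg over every gene tested. MLACC was compared with its control, controls with 0 h and consecutive times with each other within each table, and the interaction and resting levels over all 60 libraries. DESeq2 1.42.0 was an alternative. Thresholds (FDR below 0.01, absolute log2FC above 1) are those of the study. Joint fits without 1 library reused the tested genes and trended dispersion of the full joint fit. Code was tested on simulated data. The 60 replicate pairs all differed by more than sampling noise (lowest chi-square 9.66 per gene). Same-numbered MLACC and control libraries deviated together (r over 0.1 in all 3 pairs) in 3 of 10 comparisons, WT at 0 h and ppsdes at 6 and 8 h, a pairing that comes from the data and not from the labels. Nothing says whether replicates were grown separately beyond the word biological, so p-values measure the spread between these samples.

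The 10 genes, the other lists, the markers and the alternatives were chosen with earlier results of these data known. All 10 genes are named in the MLACC comparisons, of the other lists at most the 4 genes with the lowest FDR in WT at 8 h, CYP83A1 as paralogue, and for each MYB gene the 3 genes of highest r. SOT17 and SOT18 (as neighbours), the ppsdes values of CYP79B2 and PEN1, the motif CGTG and the libraries nearest another time were chosen after values were seen. Gene models and upstream sequences come from RefSeq TAIR10.1, whose nuclear chromosomes have the lengths of TAIR10, and motifs were searched on both strands. Guard cell and vascular markers were also listed, of which 1 of 4 guard cell genes rose and 1 fell, and 2 of 4 vascular genes fell, with MLACC in WT at 8 h.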

Additional observations from a re-analysis of the deposited data

Results flagged for a closer look

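A difference of the MLACC effect between the backgrounds, ppsdes minus WT, passed the interaction test for 4 of the 10 genes, all of them core enzymes. For SOT16 it was -2.18 at 2 h, -4.13 at 4 h and -2.38 at 6 h. For CYP83B1 it was -2.75 at 4 h, for UGT74B1 -1.93 at 4 h and -1.88 at 6 h, and for SUR1 -1.56 at 6 h and -1.06 at 8 h. Over all genes 0.206%, 20.7%, 4.13% and 19.9% were called at 2, 4, 6 and 8 h (0.0702%, 10.6%, 2.61% and 8.61% lower). The calls on SOT16 at 2 h and on SUR1 at 8 h were lost without single libraries. With the difference at 0 h subtracted, only SOT16 at 4 h was kept. PEN3, which is not a core enzyme, was not called at 4 h in the main fit. It was called there by DESeq2 (-2.36, FDR = 0.0046) and with the replicate number as a block (-2.18, FDR = 0.0096). Groups held 3 libraries, so that single libraries were not tested as outliers.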

How the results depend on the processing

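Over the 10 genes and 32 comparisons, 16 of the 61 calls were kept under every alternative run. Of 4718 alternative values 4528 kept their side of the threshold, 135 lost a call and 55 gained one. Direction was compared only where the main or the alternative value was called, and 0 of those turned. Values called in neither run were not compared for direction. Counts of called genes below are out of 10, and the cause of each shift was not tested. With the difference at 0 h subtracted, which adds the error of the 0 h groups, the MLACC counts in WT were 0, 4, 3 and 2 at 2, 4, 6 and 8 h. Those in ppsdes were 0 and 1 at 6 and 8 h, and those of the interaction 0, 1, 0 and 0. MYB122 had no counts at 0 h, which left it without an interpretable error under this setting. Its WT calls at 4, 6 and 8 h therefore count as lost here and as not kept above, although every other alternative kept them. With only the libraries compared in the fit, 0 and 4 were called in WT at 2 and 4 h, 0 and 0 in the interaction at 2 and 8 h, 0 in the mYFP line at 2 h against 0 h, 2 in the ppsdes control at 8 h and 0 for the change from 2 to 4 h in WT. The DESeq2 Wald test called 1 in ppsdes at 4 h, 5 in the interaction at 4 h, 1 in the mYFP line at 4 h and 1 for the change from 0 to 2 h in WT. Without a filter on low counts the change from 2 to 4 h in WT had 1 call. Without the 7 libraries nearest another time, an alternative chosen after seeing the data, 1 was called in ppsdes at 4 h, 0 in the interaction at 2 h, 3 in the ppsdes control at 8 h and 1 in the mYFP line at 4 h.

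With the replicate number as a block, 1 gene was called in ppsdes at 4 h (MYB51, 3.51, FDR = 0.0049) and 1 in the mYFP line at 6 h, where CYP81F2 was lost (-3.36, FDR = 0.011), as at 8 h (-3.18, FDR = 0.013). SOT16 was gained in the mYFP line at 2 h (-1.10, FDR = 0.0092) and PEN3 in the interaction at 4 h (-2.18, FDR = 0.0096), and beside CYP83B1 at 6 h and PEN3 at 8 h in ppsdes no other call changed. Of 30 same-numbered pairs 20 correlated above 0.1 (r from -0.18 to 0.54), and in 20 of 30 the own number was the best match. Some same-numbered libraries thus also deviated together outside the 3 paired comparisons, and the main fit held no term for the replicate number.

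Leaving out 1 library at a time, the MLACC counts ranged from 1 to 2, 6 to 9, 7 to 7 and 6 to 9 in WT at 2, 4, 6 and 8 h, and from 0 to 0, 1 to 4 and 2 to 4 in ppsdes at 4, 6 and 8 h. The interaction gave 0 to 1, 3 to 5, 3 to 3 and 0 to 2, the mYFP line against 0 h 1 to 2, 0 to 1, 0 to 2 and 1 to 4, the ppsdes control 4 to 7, 1 to 2, 1 to 1 and 0 to 1, and the changes in WT 0 to 1 from 0 to 2 h and 0 to 2 from 2 to 4 h. Depth limits MYB122 alone of the 10 genes, whose controls held at most 10 counts in a library.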
